A study of Drosophila melanogaster with 36 samples.

Results

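The comparison described here sets the second day of collection against the first in dnClk fat body. It rests on 12 of the 36 arrays of the series. They are the arrays titled dnClk at ZT 24, 28, 32, 36, 40 and 44 (6 arrays) and those at ZT 0, 4, 8, 12, 16 and 20 (6 arrays), set against each other at the same hour of day. ZT is the time in hours after lights on, as the labels name it.

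The fat body is the insect organ that stores lipid and glycogen and makes the proteins of the blood, a combination of tasks that mammals divide between liver and adipose tissue. It holds a circadian clock of its own, in which the transcription factors Clock and cycle switch on per, tim, vri, Pdp1 and cwo, whose products feed back on Clock and cycle. A dominant-negative form of Clock goes by the name dnClk. A transcript that followed only a daily cycle would return to the same level at the same hour of the next day, and the day difference measures the departure from that.

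All flies were adult males, kept after eclosion under a 12 h light and 12 h dark cycle for 5 days at 25 °C and collected from the 6th day over 2 consecutive days. Abdominal fat bodies of 10 flies were pooled for each array. The dnClk flies were sampled every 4 h and are labelled by that name alone, and their driver and its cell type were not stated in these labels. The flies labelled WT, 24 arrays at 2 h intervals, are labelled w; UAS-dnClk/+, and were compared at the 6 hours they share with dnClk (12 arrays). In an earlier account of these data the WT arrays differed from the dnClk arrays in technical controls. Where levels of dnClk and WT are set side by side below, genotype and that technical difference cannot be told apart. The labels leave unsaid, beyond the ZT names, whether the light cycle went on during collection. Time points were not replicated, so the 6 hours of a day stand in for replicates, and p-values measure how evenly the day difference held across hours. Second-day flies were also a day older and were dissected on another day, so age, dissection and day cannot be told apart. In pooled tissue, fewer cells of a type and less RNA per cell cannot be told apart either.

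The values were probe set intensities on a linear scale, scaled by the authors to the same trimmed mean, 150.0, on every array. Levels were compared on the scale log2(intensity + 16), where folds of dim probe sets come out too small. The number of arrays limits the precision. Fat body transcripts were bright on both days: the lipid droplet gene Lsd-2 ranged from 1904.8 to 2344.5 intensity units on the first day and from 2054.3 to 2674.8 on the second, and the lipoprotein gene apolpp from 2114.4 to 2849.8 and from 2077.2 to 2601.7. The mean log2 level of 13 fat body markers was 8.89 and 8.82 on the 2 days in dnClk, against 10.07 and 10.17 in WT. Transcripts of other tissues were present too, as given below. The larval fat body gene Fbp1 lay between 4.6 and 15.3 units on all 12 arrays. The ZT44 array stood apart in its technical signals, with the highest level of the hybridisation controls of the 12 (10.76 on the log2 scale, against 10.05 to 10.37 on the others) and the highest 3′ minus 5′ differences of Act5C (2.08) and Gapdh (2.45).

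Of 11261 probe sets, 63 (0.559%) passed a limma day term with hour of day as a block at a Benjamini-Hochberg adjusted p of 0.05. They were 41 higher (0.364%) and 22 lower (0.195%) on the second day. With 1 probe set for each gene, 51 of 8472 genes passed, 32 higher (0.378%) and 19 lower (0.224%). All 51 moved the same way at all 6 hours, which 576 genes did upward (6.8%) and 458 downward (5.41%) among all tested genes. The days did not overlap in 19 of the 32 higher genes and in 19 of the 19 lower genes, against 184 (2.17%) and 99 (1.17%) of all genes. The day term passes genes whose 6 hour differences are large and even. The shared direction and the lack of overlap follow largely from that selection and are no separate support. The change reached 2-fold in 20 of the higher and 8 of the lower genes. The median gene had a day difference of 0.0031 on the log2 scale, and 1413 genes (16.7%) had an unadjusted p under 0.05. The count of 63 leaned on every hour: it was 40 without hour 0, 19 without hour 4, 3 without hour 8, 26 without hour 12, 4 without hour 16 and 5 without hour 20. Of the 30 passing genes named by rule, 22 still passed without hour 0, 12 without hour 4, 2 without hour 8, 13 without hour 12, 3 without hour 16 and 4 without hour 20.

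**Figure D1:**
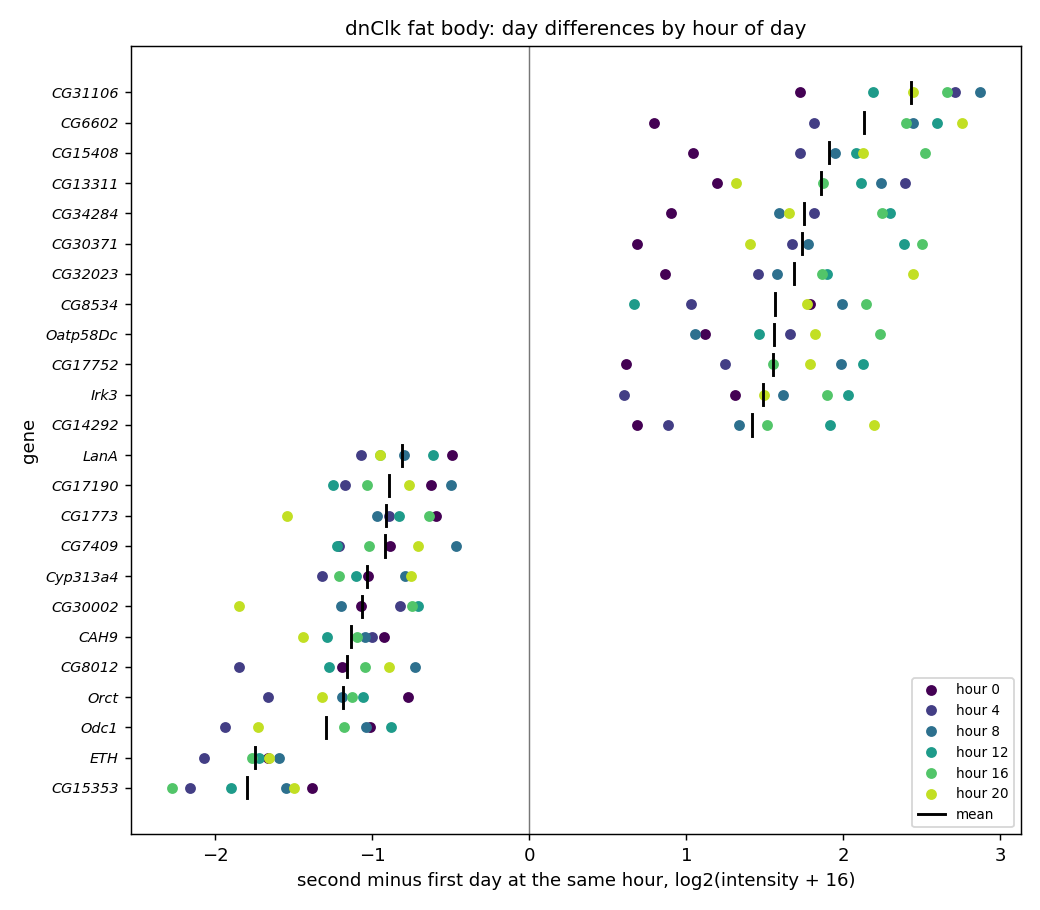
Day differences of the 12 genes with the largest rise and the 12 with the largest fall among those that passed, in log2(intensity + 16) units. Each point is an hour of day and the black bar is the mean of the 6 hours; all points of a gene lie on the same side of 0.

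The 12 largest rises included 2 markers of the Malpighian tubule and several genes of known or predicted carriers. Malpighian tubules are the fly's renal tubules, which lie free in the abdomen near the fat body, and their cells are rich in carriers for ions and organic solutes. CG31106 had the largest rise. Its intensity was 97.9 at ZT0, 28.9 at ZT4, 63.9 at ZT8, 74.4 at ZT12, 32.6 at ZT16 and 17.4 at ZT20, and then 360.7, 277.3, 568.2, 396.3, 290.6 and 165.8 at the same hours of the second day. The lowest second-day array was above the highest first-day array. The log2 difference was 2.43 ± 0.15 (SE, 6 hours; limma adjusted p = 0.0034), a 5.40-fold rise.

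The organic anion transporter gene Oatp58Dc, on the list of tubule markers, measured 79.5, 32.5, 98.7, 42.8, 23.7 and 25.3 units from ZT0 to ZT20 and 191.7, 137.0, 222.7, 145.8, 170.8 and 129.7 from ZT24 to ZT44. All second-day arrays were above all first-day arrays, with a log2 difference of 1.56 ± 0.16 (SE; limma adjusted p = 0.015). Irk3, an inward rectifier potassium channel of the tubule, measured 93.5, 78.8, 71.4, 36.6, 41.7 and 30.8 units and then 254.8, 128.0, 251.4, 198.6, 198.5 and 115.8. It too rose without overlap, by 1.49 ± 0.18 (SE; limma adjusted p = 0.026). In both genes the first-day level was lower from ZT12 to ZT20 than at ZT0.

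Other carriers and an enzyme were among the 12 largest rises. CG17752, a predicted organic cation transporter, ranged from 22.2 to 159.1 units (median 59.9) on the first day and from 116.1 to 538.5 (median 214.9) on the second. CG15408, a predicted sugar transporter, ranged from 11.4 to 117.9 (median 40.9) and then from 103.7 to 317.2 (median 192.4). The ranges of both overlapped between days, although every hour was higher on the second day. CG8534, a predicted elongase of very long chain fatty acids, stood between 23.4 and 34.8 units (median 30.1) on the first day and between 64.7 and 187.7 (median 124.7) on the second. Here the first day was nearly flat and the second was higher throughout (log2 difference 1.56 ± 0.21 SE, limma adjusted p = 0.033). The brightest gene of the group, CG14292, went from 279.4 to 1080.2 units (median 628.2) to 1336.8 to 1887.0 (median 1622), without overlap. The other genes of the 12, CG6602, CG13311, CG34284, CG30371 and CG32023, differed by 1.68 to 2.13 on the log2 scale, with limma adjusted p of 0.014 to 0.034, and overlapped between days except for CG32023.

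Outside the 12, 20 genes rose, by 0.57 to 1.32 on the log2 scale. Described here are 4 of them, picked after their values were seen. NaPi-T, a sodium and phosphate cotransporter, rose from a range of 24.7 to 56.1 units to one of 73.6 to 156.4. Ctns, the fly cystinosin that carries cystine out of lysosomes, went from 155.6 to 364.1 units to 354.1 to 566.8. Dh31-R, the receptor of the diuretic hormone DH31, went from 47.1 to 53.9 units to 65.2 to 106.8. Mur18B, a mucin gene, went from 360.8 to 1049.1 units to 1220.0 to 1635.1. NaPi-T, Dh31-R and Mur18B did not overlap between days, and Ctns did. Ugt35B1, twit and stc are described with their lists or with WT, and the other 13 were CG34043, CG31272, CG33158, CG7882, CG18095, CG3168, CG42807, CG9864, CG4928, FucTC, CG8028, kumpel and CG31663.

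Marker lists of other cell types were read on the same arrays. The mean log2 level of the 8 tubule markers on the array lay between 5.68 and 6.09 on the first day and between 6.22 and 6.82 on the second, higher at 6 of 6 hours and without overlap. Of the 5 tubule markers bright enough to be tested, Oatp58Dc and Irk3 passed (2 of 5, against 0.378% of all genes), while Prestin, with a difference of -0.23 (limma adjusted p = 0.33), did not. The lists were chosen with earlier results of these data known, and the list mean holds the same 2 genes. Neither that share nor the mean is therefore separate support. The median difference of the 5 was 0.15, and -0.0077 after scaling on the hybridisation controls, against 0.0031 and -0.15 for all tested genes. Without hour 20, which holds the ZT44 array, that scaling gave 0.11, against -0.075 for all tested genes. The dim markers Oatp58Da and Oatp58Db were among the markers below the filter, which were not tested. Values of the list members not named here are not given. Oatp58Db lay between 2.5 and 14.6 units on the first day and between 18.2 and 59.2 on the second, and Oatp58Da between 4.9 and 19.6 and then between 22.2 and 44. In WT the tubule mean ranged from 5.73 to 7.40 on the first day and from 5.25 to 6.56 on the second, wider than in dnClk on either day. How much of the rise of the transporter genes goes with the tubule signal was not tested, and in dnClk the tubule signal and the day cannot be told apart.

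**Figure D2:**
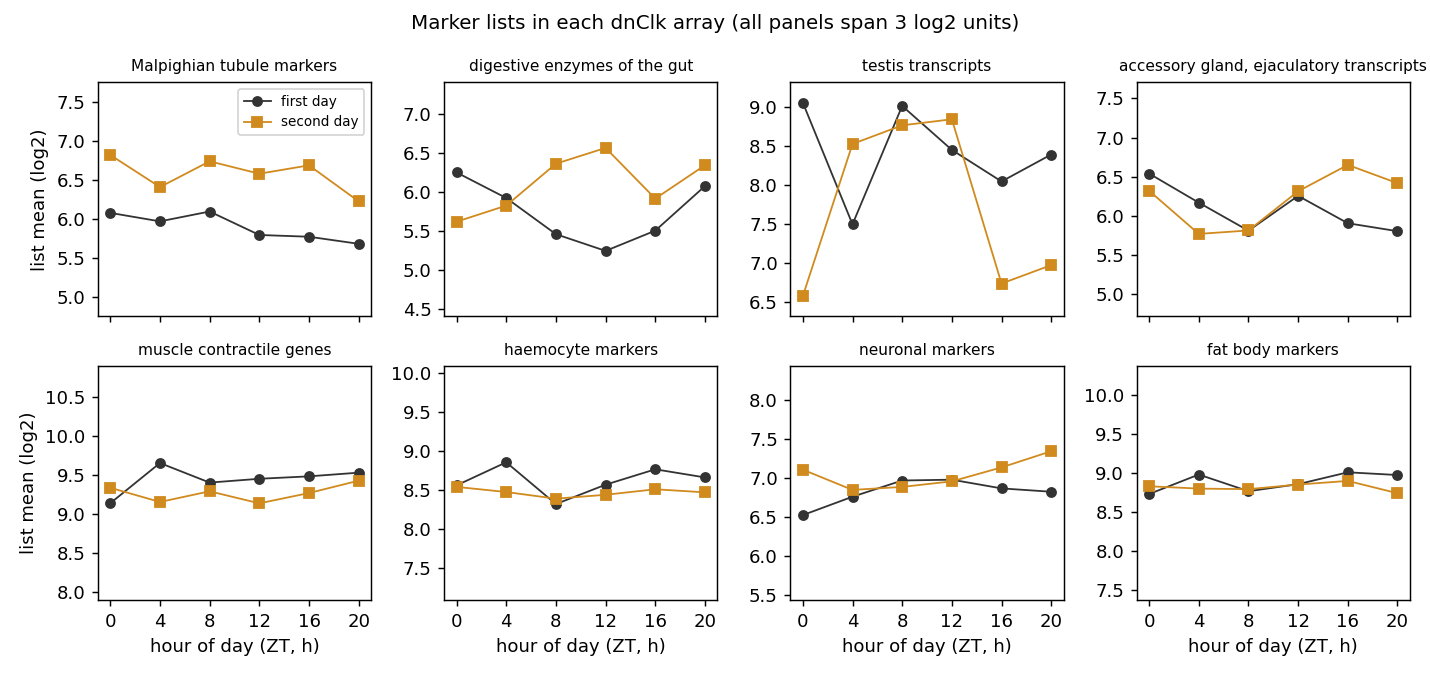
Mean log2(intensity + 16) of 8 marker lists in each dnClk array, by hour of day, with the first day as circles and the second as squares. The tubule list is the one whose days do not overlap (5.68 to 6.09 against 6.22 to 6.82), while the testis list is lowest on the second day at hours 0, 16 and 20.

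Gut and testis signals moved in another way. The testis list mean was 9.05, 7.49, 9.01, 8.45, 8.04 and 8.39 from ZT0 to ZT20 and 6.57, 8.52, 8.76, 8.84, 6.73 and 6.97 from ZT24 to ZT44. It was low at hours 0, 16 and 20 of the second day and higher than on the first day at 2 of 6 hours. None of its 22 tested genes passed or had an unadjusted p under 0.05 (limma), although their median difference was -0.94. The testis gene ocn, for example, ran from 584.9 to 1745.3 units on the first day and from 131.1 to 1584.4 on the second (log2 difference -1.26 ± 0.63 SE, limma adjusted p = 0.36). Of 31 digestive enzymes of the gut, 10 were tested and none passed (limma, 2 of 10 or 20% higher at an unadjusted p under 0.05, against 8.65% of all genes), with a median of 0.76. The proteases Jon65Aiii and Jon65Aiv had differences of 1.51 ± 0.56 and 1.51 ± 0.58 (SE), higher at 5 of 6 hours, with limma adjusted p of 0.28 and 0.29. The mean of the male accessory gland and ejaculatory list lay between 5.80 and 6.54 on the first day and between 5.77 and 6.65 on the second.

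The 19 genes that fell had a median difference of -0.91, against 1.09 for the 32 that rose, and none of the 19 overlapped between days. ETH encodes ecdysis triggering hormone, a peptide of the tracheal Inka cells that drives moulting behaviour and also acts in adults. It measured 158.0, 295.1, 178.6, 174.1, 221.8 and 216.1 units on the first day and 38.8, 57.8, 48.3, 41.6, 54.0 and 57.4 on the second. The second day was low and even, at 3.36-fold less than the first (log2 difference -1.75 ± 0.08 SE), with the smallest limma adjusted p of all probe sets, 0.0012. CG15353 measured 99.8, 222.3, 94.8, 140.0, 171.9 and 118.7 units and then 28.3, 37.2, 21.9, 25.8, 22.7 and 31.6, a difference of -1.80 ± 0.14 (SE; limma adjusted p = 0.0082). Both genes were highest at ZT4 of the first day.

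Enzymes and a carrier followed in size. Odc1, ornithine decarboxylase of the polyamine pathway, ranged from 100.4 to 195.5 units (first day) and from 39.2 to 75.3 (second), a difference of -1.30 ± 0.16 (SE; limma adjusted p = 0.025). Orct, an organic cation transporter, measured 156.1, 372.5, 196.8, 197.1, 208.5 and 204.8 units and then 84.6, 106.7, 77.2, 86.0, 86.7 and 72.5. ZT4 stood above the other first-day arrays, and every second-day array lay below all of the first day (log2 difference -1.19 ± 0.12 SE, limma adjusted p = 0.014). CAH9, a carbonic anhydrase, measured 88.9, 125.1, 85.1, 93.5, 107.3 and 111.2 units and then 39.1, 54.4, 33.0, 28.8, 41.7 and 30.7, a 2.20-fold fall (limma adjusted p = 0.0082). Orct fell while the predicted carrier CG17752 rose on the same arrays.

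The cytochrome P450 genes Cyp313a4 and Cyp4g15 fell by 1.04 and 0.75 on the log2 scale, 2 of the 65 tested genes of that family (0.224% of all genes fell). Cyp313a4 ranged from 110.7 to 207.5 units and then from 46.1 to 84.6. LanA, the laminin A chain of basement membranes, measured between 1095.4 and 1573.2 units on the first day and between 712.5 and 834.9 on the second, a difference of -0.81 ± 0.10 (SE; limma adjusted p = 0.024). The remaining genes of the 12, CG8012, CG30002, CG7409, CG1773 and CG17190, fell by 0.89 to 1.17, with limma adjusted p of 0.027 to 0.045.

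Markers of muscle and haemocytes, the blood cells, were read beside these falls. TpnC41C, a troponin C of muscle, measured 1065.1, 1540.8, 1198.4, 1154.3, 1412.6 and 1520.0 units and then 780.7, 763.2, 744.0, 622.6, 760.3 and 826.0, without overlap. It was the 1 gene of 17 tested muscle genes that passed (log2 difference -0.79 ± 0.09 SE, limma adjusted p = 0.021). In WT it ranged from 786.7 to 1024.5 units and then from 492.8 to 1021.1 (log2 difference -0.53 ± 0.20 SE, limma adjusted p = 0.86). Of the 17, 13 had a difference below 0 and 5 (29.4%) were lower at an unadjusted p under 0.05, against 8.03% of all genes, with a median of -0.15. The flight muscle actin gene Act88F had a difference of -0.66 ± 0.14 (SE) without overlap but with a limma adjusted p of 0.11. The muscle list mean lay between 9.14 and 9.66 on the first day and between 9.14 and 9.43 on the second, lower at 5 of 6 hours by a mean of -0.17. In WT the same mean differed by -0.28 between days and was lower at 4 of 6 hours, with a median over the tested genes of -0.30. None of 15 haemocyte markers passed (limma, 3 or 20% lower at an unadjusted p under 0.05), 12 were below 0 and 3 above, and the median was -0.16, against -0.12 in WT. Of these, Pxn (peroxidasin), vkg and Col4a1 (both chains of collagen IV) were lower at all 6 hours, with differences of -0.34, -0.42 and -0.24 and limma adjusted p of 0.10, 0.13 and 0.21. The haemocyte mean lay between 8.33 and 8.86 and then between 8.39 and 8.55. The part of these cell types in the falls was not tested.

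The same contrast was fitted in WT at the same hours to ask whether these genes also differed between days without the dnClk label. None of 11261 probe sets passed (limma, 624 at an unadjusted p under 0.05, smallest adjusted p 0.86). With all 12 WT hours, 25 passed (0.222%) and all were lower. The WT count also rose with testis and accessory gland covariates, as given in the section on processing. The WT testis list mean differed between days by -3.12 to 3.83 over the shared hours. The count of 0 therefore does not show that WT was alike on both days. Of the 32 genes that rose in dnClk, 3 had a positive WT difference, and the median WT difference was -0.29 against 1.09 in dnClk. Of the 19 that fell, 13 had a negative WT difference, with a median of -0.15 against -0.91. The median WT difference of all tested genes was -0.04. An unadjusted WT p under 0.05 (limma) was seen in 3 of the 32 and 2 of the 19, against 624 of all 11261 probe sets. A WT change of these genes, in either direction, was thus not shown by these counts. WT levels of the transporter genes varied widely within each day: Irk3 ranged from 15.9 to 627.1 units on the first WT day and from 7.8 to 151.1 on the second, and CG31106 from 9.1 to 802.4 and from 6.2 to 165.1. On the first WT day the genes of the 12 largest rises, except CG30371 and CG8534, were all highest at ZT0 and ZT12. Oatp58Dc, for example, measured 423.4 and 400.7 units there, and 24.3 and 27.7 at ZT8 and ZT20. These genes moved together in WT, and whether they changed separately in dnClk was not tested. ETH in WT ranged from 105.3 to 317.2 units and from 86.9 to 335.3, so second-day dnClk, at 38.8 to 57.8, lay below all 12 WT arrays at these hours.

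**Figure D3:**
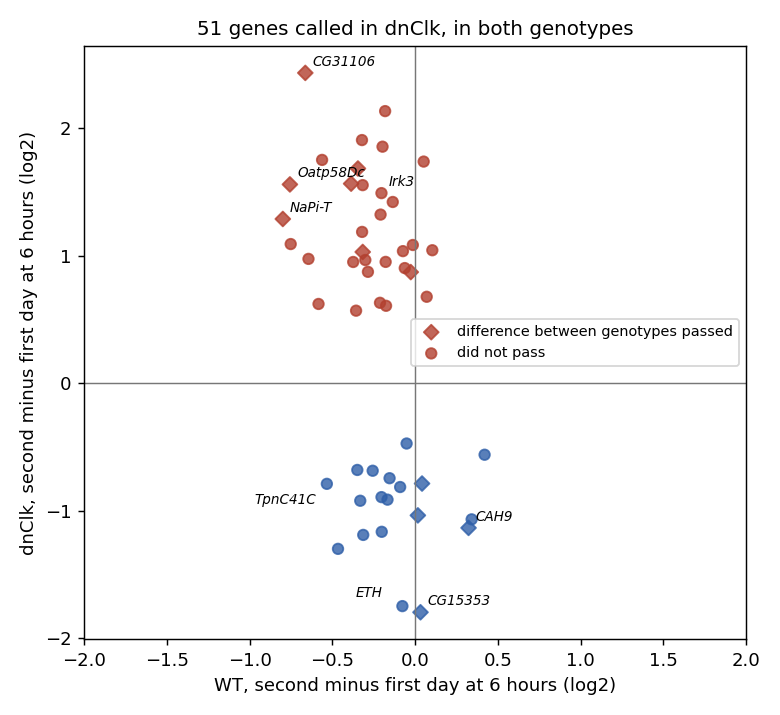
Day difference in dnClk (vertical axis) against that in WT (horizontal axis) for the 51 genes that passed in dnClk, both in log2 units over the same 6 hours; red points rose and blue points fell in dnClk. Diamonds mark the 11 genes whose day differences also differed between the genotypes. WT differences lie between -0.80 and 0.42, dnClk differences between -1.80 and 2.43.

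A direct test of whether the day difference itself differed between genotypes passed for 20 of 11261 probe sets (0.178%), 16 positive and 4 negative, in 18 genes. Those genes included 7 of the 32 that rose and 4 of the 19 that fell, so for the other passing genes a difference from WT was not shown. The passing genes were selected on their dnClk difference, which is also part of this test, so that overlap is no separate support. CAH9 differed most clearly among the falls. Its difference of -1.13 in dnClk stood against 0.32 in WT, where levels ran from 69.9 to 217.5 and from 88.7 to 296.0 units (change of -1.46 ± 0.20 SE between genotypes, limma adjusted p = 0.039). Cyp313a4 fell by 1.04 in dnClk and was at 0.02 in WT, and CG31826, at 108.5 to 140.4 and then 54.3 to 70.2 units in dnClk, fell by 0.79 and was at 0.04 in WT.

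Genes with a positive change between genotypes included twit, a small surface protein named as a target of the BMP receptor wit, and stc (shuttle craft), a zinc finger protein. In dnClk twit went from 43.5 to 102.1 units to 113.6 to 238.1, and in WT from 36.5 to 60.4 to 32 to 47.6. The change between genotypes was 1.35 ± 0.19 (SE; limma adjusted p = 0.039). In dnClk stc went from 228.3 to 330.8 units to 437.0 to 596.8, and in WT it stayed between 207.2 and 354.8 on all 12 arrays. CG12780 measured 117.5 to 167.8 and then 163.6 to 429.0 units in dnClk and 94.8 to 366.6 and then 36.2 to 136.8 in WT. It passed between genotypes (1.63 ± 0.25 SE, limma adjusted p = 0.039) but not within dnClk (limma adjusted p = 0.063). The count of 20 fell to 2 after quantile normalization, to 0 with arrays centred on their medians, to 11 without hour 12 and to 0 without any other hour.

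The core clock was read next, because a clock under dominant-negative Clock could lose or keep its cycle from day to day. None of the 8 core clock genes passed for a difference in level between days or had an unadjusted p under 0.05 (limma). tim measured 284.4, 280.4, 435.4, 894.2, 1051.1 and 779.9 units from ZT0 to ZT20 and 446.8, 360.5, 760.6, 1010.8, 1108.7 and 629.2 from ZT24 to ZT44, peaking at ZT16 and ZT40. Its log2 day difference was 0.28 ± 0.15 (SE; limma adjusted p = 0.37). per measured 47.0, 53.3, 53.2, 108.6, 156.4 and 77.8 units and then 59.9, 51.2, 69.0, 116.2, 183.8 and 64.3, again highest at hour 16 on both days. vri, a repressor of Clk, measured 135.8, 166.2, 249.9, 486.4, 424.6 and 240.7 units and then 269.3, 197.5, 348.7, 417.3, 468.1 and 251.6. The fitted 24 h amplitude, from mean to peak in log2 units, was 1.04 ± 0.10 on the first day and 0.79 ± 0.10 on the second for tim, 0.69 ± 0.16 on each day for per, and 0.87 ± 0.11 and 0.52 ± 0.11 for vri (SE, 6 arrays a day).

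cwo, a repressor that acts on Clock targets, differed in shape between the days, mainly at hours 0 and 20. It measured 264.2, 434.8, 562.3, 450.8, 501.2 and 437.8 units on the first day and 695.0, 519.9, 403.8, 515.8, 520.3 and 699.9 on the second. The first day was lowest at ZT0 and the second was highest at hours 0 and 20, with fitted peaks at 11.5 h and 21.4 h and like amplitudes of 0.34 and 0.35. The limma test of a rhythm that differs between days had an adjusted p of 0.24 for cwo. A second probe set of cwo had amplitudes of 0.29 and 0.17. The cwo day difference was 1.34 at hour 0 and 0.66 at hour 20, and -0.46 to 0.25 at the others. Its ZT0 array stood far from the others of that day, and hour 20 holds the ZT44 array. Genes outside the clock, br, cac and Hr3, also had their largest differences at hours 0 and 20, while fbp had its lowest there. Whether the shape was particular to cwo was not tested. cry, the blue light receptor of the clock, measured 130.1, 214.4, 124.4, 100.5, 64.6 and 81.4 units and then 133.0, 135.1, 102.9, 77.6, 84.8 and 101.5, with amplitudes of 0.65 ± 0.09 and 0.36 ± 0.09 (SE; limma adjusted p for a different rhythm 0.25). Clk, cyc and Pdp1 had day differences of -0.15, -0.02 and 0.16, with limma adjusted p of 0.45, 0.91 and 0.46.

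**Figure D4:**
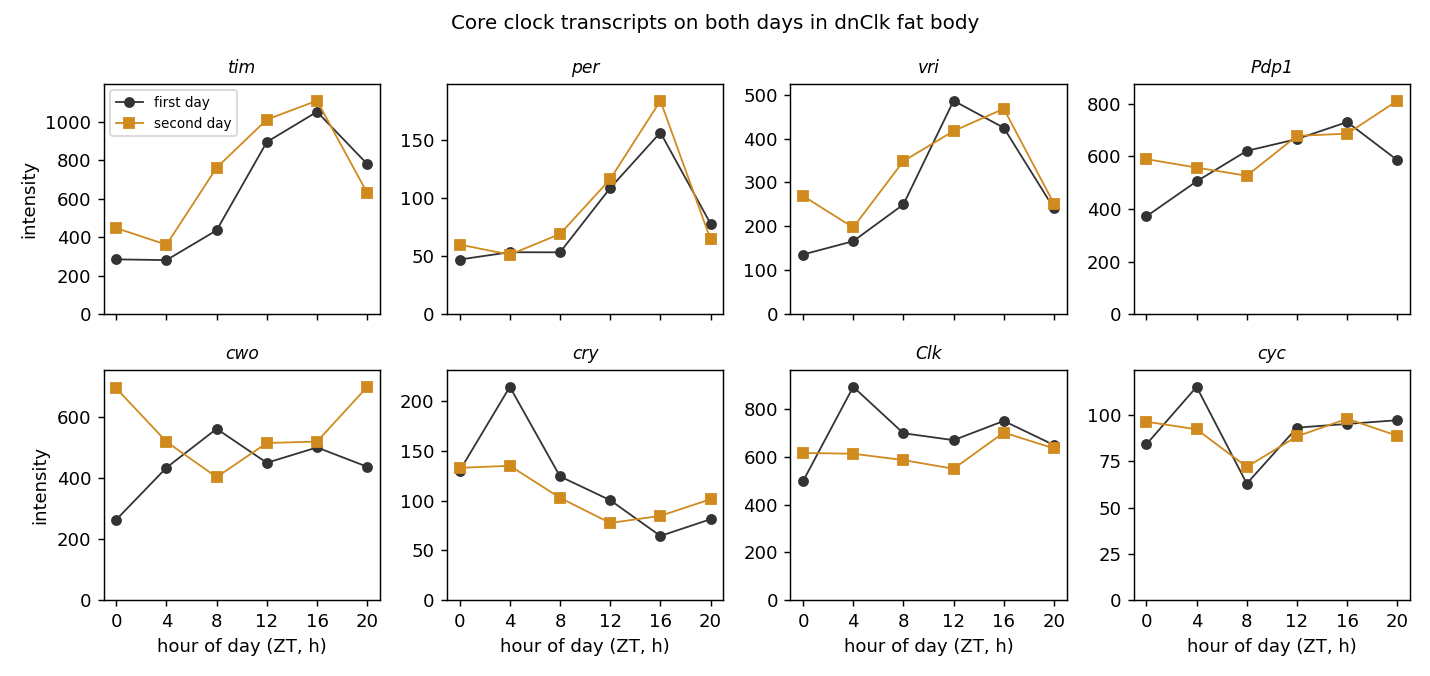
Intensity of the 8 core clock transcripts in dnClk fat body by hour of day, on the first day (circles) and the second day (squares), 1 array for each point. tim, per and vri are highest at hours 12 to 16 on both days, and cwo has its lowest and one of its highest values at hour 0.

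Over all probe sets, none passed for a 24 h rhythm that differed between the days (limma F, 2057 at an unadjusted p under 0.05, smallest adjusted p 0.23). The genes with the smallest p were the alpha-glucosidase gene tobi, CG10910, the maltase gene Mal-A6 and CG6295, a predicted lipase. tobi measured 220.2, 168.0, 65.3, 37.3, 42.3 and 141.9 units and then 40.8, 76.3, 164.0, 330.9, 69.2 and 50.3. Mal-A6 measured 372.0, 181.6, 59.4, 20.8, 23.7 and 170.1 units and then 58.5, 85.8, 198.5, 449.7, 81.8 and 83.8. CG6295 measured 497.4, 199.7, 24.6, 9.0, 11.1 and 235.1 units and then 66.3, 114.0, 157.3, 539.3, 120.8 and 149.4. All were highest at ZT0 on the first day and at ZT36 on the second, 12 h off in hour of day. Gut protease genes shared part of this course. betaTry measured 500.7, 143.8, 65.7, 12.9, 29.1 and 335.5 units and then 89.3, 189.8, 636.3, 602.3, 239.2 and 522.6. Jon65Aiii measured 343.8, 80.3, 46, 38.3, 62.9 and 211.1 units and then 130.4, 186.3, 582.5, 428.4, 197.6 and 643.6. On the first day both proteases were highest at ZT0, as tobi was. On the second day betaTry was highest at ZT32 (636.3 units) and nearly as high at ZT36 (602.3), where tobi and Mal-A6 were highest. Jon65Aiii was highest at ZT44, where tobi and Mal-A6 were low. The part of gut RNA in these profiles was not tested.

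Metabolic and stress genes were read by list, with 1 probe set for each gene and the counts over all tested genes as background. At an unadjusted p under 0.05, 8.65% of all genes were higher and 8.03% lower on the second day (16.7% in either direction), and 49.5% of all genes had a difference below 0. Of 67 tested genes of the respiratory chain and ATP synthase, the mitochondrial complexes that make ATP, none passed the adjusted test. Of these, 62 (92.5%) had a difference below 0 and 25 (37.3%) were lower at an unadjusted p under 0.05, with a median of -0.21. SdhC, a membrane subunit of succinate dehydrogenase, measured 308.5, 405.2, 271.1, 266.4, 342.2 and 345.4 units and then 244.2, 267.4, 217.3, 214.9, 221.6 and 241.1 (log2 difference -0.43 ± 0.08 SE, limma adjusted p = 0.068). Every hour was lower on the second day, and the days overlapped.

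Mitochondrial ribosomal proteins were alike, with none of 69 passing, 64 (92.8%) below 0, 21 (30.4%) lower at an unadjusted p under 0.05 and a median of -0.15. mRpL35 measured 145.2, 166.8, 107.6, 121.3, 148.0 and 144.4 units and then 91.9, 117.7, 84.4, 91.0, 108.5 and 86.8, lower at 6 of 6 hours (log2 difference -0.45 ± 0.07 SE, limma adjusted p = 0.058). In WT the list medians were 0.13 for the respiratory chain and 0.20 for the mitochondrial ribosome, and none of their genes passed for a difference between genotypes. Both medians in dnClk stayed below 0 under quantile, median and hybridisation control scaling, at -0.20 to -0.37 and at -0.15 to -0.30. The median of all tested genes was -0.0063, -0.04 and -0.15 under these scalings, in that order. Median and hybridisation control scaling moved all day differences down by a like amount, so they could not have turned these medians positive. Of 39 cytosolic ribosomal proteins, 30 were above 0 with a median of 0.10. After scaling on the hybridisation controls 6 were above 0, and after that scaling without hour 20, 17 were. Of all 8472 tested genes, 4278 were above 0 as deposited, 2055 after that scaling and 2942 after it without hour 20. The counts of the list thus moved with those of all genes.

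Detoxification genes were mixed. None of 30 glutathione transferases passed (limma, median 0.03), 9 (30%) were higher at an unadjusted p under 0.05, and 7 (23.3%) were higher at all 6 hours, against 6.8% of all genes. GstD10 measured 303.2, 285.8, 245.4, 365.7, 332.2 and 225.2 units and then 482.4, 355.9, 402.1, 472.0, 490.3 and 330.9 (log2 difference 0.51 ± 0.08 SE, limma adjusted p = 0.052). GstD9 was likewise higher at 6 of 6 hours, by 0.42 (limma adjusted p = 0.10). Of 16 UDP-glycosyltransferases, Ugt35B1 rose, from 76.7 to 301.3 units to 170.5 to 497.1 (log2 difference 1.04 ± 0.16 SE, limma adjusted p = 0.048), with an overlap between days. Cyp4p1, among the P450 genes, was higher without overlap by 0.41 ± 0.07 (SE) with a limma adjusted p of 0.058.

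**Figure D5:**
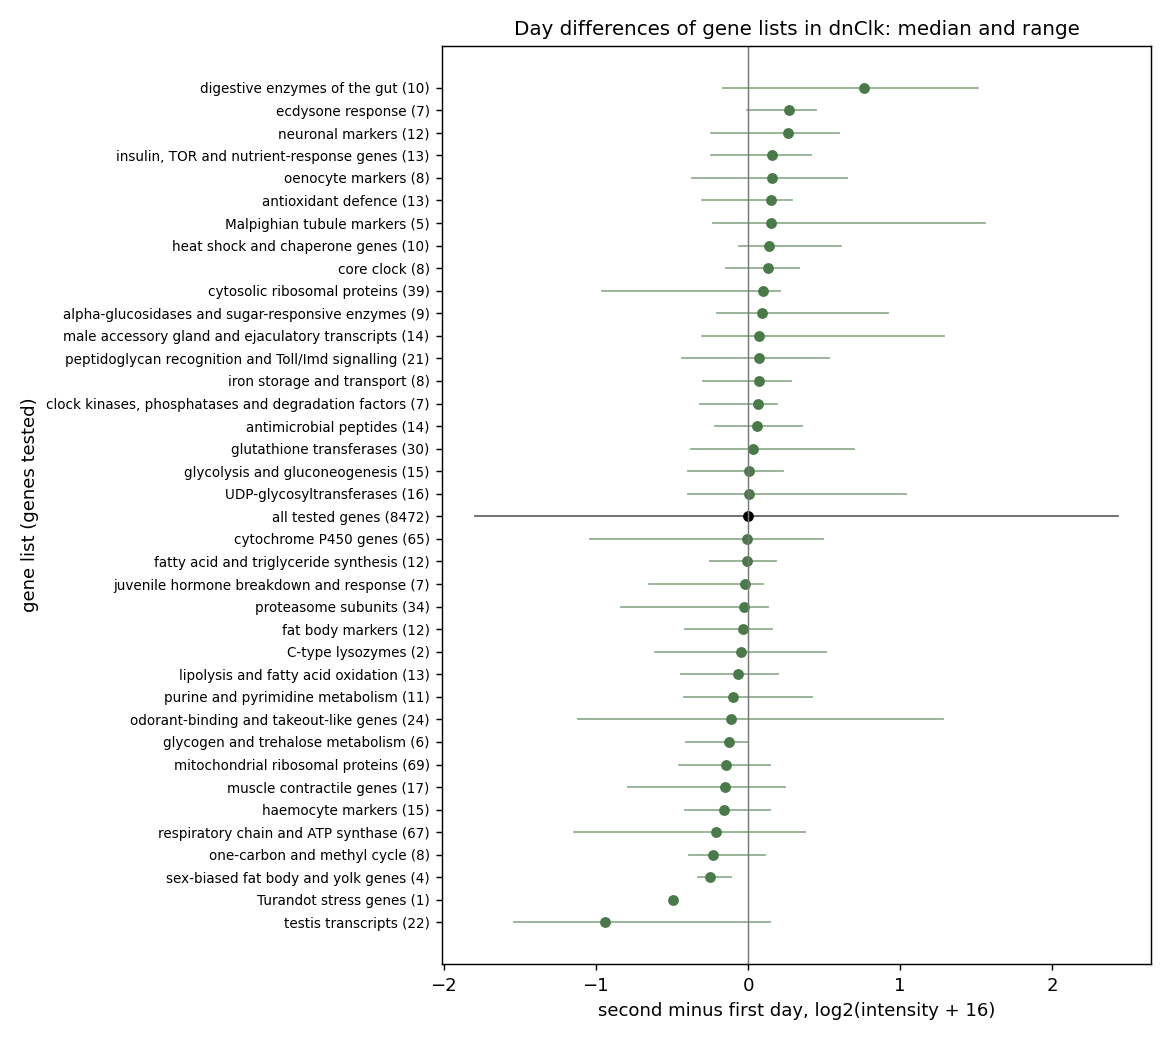
Median (point) and range (line) of the log2 day difference in dnClk for the tested genes of 37 gene lists and for all tested genes (black), with the number of tested genes in parentheses. Medians run from -0.94 for testis transcripts to 0.76 for digestive enzymes of the gut, and the median of all genes is 0.0031.

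Storage and fuel metabolism showed no gene past the threshold. None of 12 fat body markers passed (limma, 1 or 8.33% lower at an unadjusted p under 0.05, median -0.03). The perilipin gene Lsd-1 measured 1059.2, 1415.4, 1155.7, 1006.2, 1285.5 and 1324.3 units and then 948.2, 941.1, 941.6, 909.3, 1096.6 and 618.9, lower at 6 of 6 hours (log2 difference -0.41 ± 0.14 SE, limma adjusted p = 0.25). None of 13 genes of lipolysis and fatty acid oxidation passed (limma, median -0.07), and 5 (38.5%) were lower at an unadjusted p under 0.05, against 8.03% of all genes. Mtpbeta, a subunit of the mitochondrial trifunctional protein, had a difference of -0.40 ± 0.10 (SE; limma adjusted p = 0.16). None of 12 genes of fatty acid and triglyceride synthesis (median -0.01), of 15 of glycolysis and gluconeogenesis (median 0.01) or of 6 of glycogen and trehalose metabolism (median -0.12) passed, with 1 (8.33%), 5 (33.3%) and 1 (16.7%) at an unadjusted p under 0.05 in either direction, against 16.7% of all genes (limma). The glycogen branching enzyme AGBE had a difference of -0.41 (limma adjusted p = 0.18).

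Nutrient sensing and immune genes had small differences. None of 13 genes of the insulin, TOR and nutrient response list passed (limma, median 0.16). At an unadjusted p under 0.05, 4 (30.8%) were higher, against 8.65% of all genes, and the kinase gene Akt measured 536.5 to 693.2 units and then 730.5 to 1034.1, without overlap (log2 difference 0.36 ± 0.10 SE, limma adjusted p = 0.18). None of 21 genes of peptidoglycan recognition and Toll/Imd signalling passed (limma), with 4 (19%) higher and 1 (4.76%) lower at an unadjusted p under 0.05. dl (dorsal), a Rel transcription factor of the Toll pathway, measured 221.3 to 264.9 and then 298.5 to 414.5 units, without overlap (0.53 ± 0.11 SE, limma adjusted p = 0.11), but a second, dimmer probe set of dl had a difference of -0.0016. None of 14 antimicrobial peptide genes (median 0.06), 10 heat shock and chaperone genes (median 0.14) or 13 antioxidant genes (median 0.15) passed (limma). The counts at an unadjusted p under 0.05 were 3 (21.4%) and 2 (20%), all higher, for the first 2 of these lists, and 3 higher (23.1%) and 2 lower (15.4%) for the antioxidant genes. None of 24 odorant-binding and takeout-like genes passed (limma), 6 (25%) were lower at an unadjusted p under 0.05, and Obp99b had a difference of -0.73 ± 0.15 (SE; limma adjusted p = 0.12).

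The other lists held no gene past the threshold either (limma), and their counts at an unadjusted p under 0.05 in either direction stood against 16.7% of all genes. The count was above that share in 3 of 12 neuronal markers (25%), 2 of 8 oenocyte markers (25%), 2 of 4 sex-biased fat body and yolk genes (50%), 2 of 7 ecdysone response genes (28.6%) and 2 of 7 genes of juvenile hormone breakdown and response (28.6%). It was also above it in 2 of 8 genes of iron storage and transport (25%), 4 of 11 of purine and pyrimidine metabolism (36.4%), 1 of 2 C-type lysozymes and the 1 Turandot gene tested, all from short lists. It was below that share in 1 of 8 genes of the one-carbon and methyl cycle (12.5%), 1 of 14 accessory gland and ejaculatory genes (7.14%), 0 of 34 proteasome subunits, 0 of 9 alpha-glucosidases and sugar-responsive enzymes and 0 of 7 clock kinases, phosphatases and degradation factors. The synaptic gene unc-13 was higher without overlap, at 345.2 to 379.3 and then 425.4 to 535.7 units (0.33 ± 0.07 SE, limma adjusted p = 0.12). The neuronal list mean lay between 6.52 and 6.97 and then between 6.84 and 7.34. The oenocyte elongase gene eloF had a difference of 0.65 ± 0.20 (SE; limma adjusted p = 0.22) and the juvenile hormone esterase gene Jhe one of -0.65 ± 0.18 (SE; limma adjusted p = 0.18).

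Technical measures of the arrays were compared by hour with a two-sided exact permutation test by sign changes, whose smallest possible p with 6 hours is 0.03125. The mean log2 level of the hybridisation controls was 10.16 ± 0.11 on the first day and 10.32 ± 0.24 on the second (SD, n = 6), higher at 6 of 6 hours by 0.16 (exact p = 0.03125, adjusted p = 0.19 over 6 measures). The ZT44 array carried much of that size: without hour 20 the difference was 0.09. The Gapdh 3′ minus 5′ difference, a sign of RNA length, was 1.76 ± 0.22 and 2.09 ± 0.20 (SD, n = 6), higher at 5 of 6 hours (exact p = 0.0625, adjusted p = 0.19), and that of Act5C was higher at 4 of 6 hours by 0.29 (exact p = 0.125, adjusted p = 0.25), and by 0.18 without hour 20. Scaling on the hybridisation controls would move the median probe set from 0.046 to -0.11, and without hour 20 from 0.045 to -0.04. Leaving out hour 20 in these scalings was chosen after seeing the data. The part of RNA length and hybridisation in the day differences was not tested.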

How the data were processed

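Total RNA of pooled abdominal fat bodies was amplified by in vitro transcription with biotin and, per the labels' protocols, read on Affymetrix arrays. The deposited values are linear probe set intensities that the authors made with MAS5 (version not stated), per the submitters' processing notes. The deposited scaling (trimmed mean 150.0, 2% off each end) was kept. The sources used here give no genome build, and scanner files were not used here. All 36 columns matched a sample by name.

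After 183 control probe sets were set aside, 18769 remained, and the 60% with the highest mean log2 level over all arrays were tested (11261, the dimmest at 31.3 units). In GEO's annotation of the platform 13647 probe sets had 1 symbol, 402 several and 4720 none, and 13544 of the single symbols were found in a gene table of Drosophila Release 6 and updated. Each gene was read from its brightest probe set (8472 tested genes). Log2(intensity + 16) was fitted with limma 3.58.1 in R 4.3.3 over the 12 dnClk arrays, with a day term and hour of day as a block (5 residual degrees of freedom), and checked on simulated data. WT at the shared hours, the genotype by day term (24 arrays) and a 24 h cosine and sine by day term were fitted likewise. P-values were Benjamini-Hochberg adjusted over 11261 probe sets.

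Arrays were paired by hour because the design sampled the same hours. Deviations from the day mean correlated between same-hour arrays at -0.74 to 0.77, so the arrays of an hour did not deviate together throughout. Members and lists were chosen with earlier results of these data known. Genes were named by rule: the 12 largest rises and falls among those that passed, all core clock genes, up to 3 with the smallest p from each of 37 lists, 6 for the genotype by day term and 4 for the rhythm by day term. Others are marked as picked after their values were seen. Alternatives were pseudocounts, scalings, brightness filters, hours left out, the block, tissue covariates and the prior.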

Additional observations from a re-analysis of the deposited data

Results flagged for a closer look

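In 3 of 94 sets of 6 arrays, a single array stood far from the others by Dixon's criterion, where chance gives about 1 in 20. Orct was high at ZT4 of the first day (8.60 on the log2 scale, nearest array 7.81), cwo was low at ZT0 of the first day (8.13, nearest 8.82), and cyc was low at ZT32 of the second day (6.46, nearest 6.71).

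The day difference differed between dnClk and WT for 18 genes, by limma's genotype by day term with adjusted p of 0.039 to 0.048. The dnClk difference minus the WT difference, in log2 units, was positive for 14 of them. It was 3.10 for CG31106, 2.32 for Oatp58Dc, 2.09 for NaPi-T, 2.03 for CG32023, 1.95 for CG8534, 1.63 for CG12780 and 1.57 for CG33462. It was 1.35 for twit, 1.11 for VAChT, 1.09 for Dgp-1, 1.03 for Sr-CIV, 0.92 for Tsp42En, 0.90 for stc and 0.73 for yata. It was negative for CG15353 (-1.83), CAH9 (-1.46), Cyp313a4 (-1.05) and CG31826 (-0.83).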

How the results depend on the processing

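The count of 63 probe sets with a day difference in dnClk was 53 and 85 with pseudocounts of 1 and 64, 42 after quantile normalization, 46 with arrays centred on their medians, 89 with no brightness filter and 92 with an intensity trend and robust prior. It was 96 among the brightest 40% (53.1% higher, against 65.1%), 163 with 24 h cosine and sine terms in place of the hour block, 37 with the residual spread shared with WT, and 247 with no replicate block, of which 60 were among the 63. It was 140 with testis and accessory gland covariates (47.9% higher). Leaving out 1 hour gave 3 to 40. Chosen after seeing the data, a filter on linear means gave 85, a testis covariate alone 203 (43.3% higher), and hours 4, 8 and 12 alone 0, with 875 at an unadjusted p under 0.05. The 20 probe sets that differed between genotypes became 14 and 21 with pseudocounts of 1 and 64, 24 with the trend prior, 2 after quantile normalization, 0 with centred arrays, 0 with no filter, 6 among the brightest 40%, 67 with no replicate block, 101 with cosine and sine terms, 221 with tissue covariates, 0 to 11 without 1 hour and 0 in hours 4, 8 and 12. The WT count of 0 became 965 with tissue covariates and 25 over 12 hours. The count of 0 for a rhythm that differs between days became 0 to 3 without 1 hour. Of the 30 passing genes named by rule, 2 to 22 still passed without 1 hour and 0 in hours 4, 8 and 12. Of these 30, 24 passed after quantile normalization, 25 with a pseudocount of 1, 28 with centred arrays, 28 with no replicate block and 22 with the spread shared with WT. All had the same sign at all 6 hours, so leaving out hours could not turn their direction. The cause of the changes in count was not tested. With 5 residual degrees of freedom and a single pool for each time, few hours decide a call.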

Other observations

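CG33462, picked after its values were seen, was brighter in dnClk than in WT on both days. It ranged from 108.7 to 411.5 units on the first dnClk day and from 457.1 to 801.5 on the second, against 14.1 to 18.6 and 5.1 to 19.8 in WT. Its rise within dnClk did not pass (log2 difference 1.39 ± 0.21 SE, limma adjusted p = 0.052), while its day difference differed from that of WT. LanA was also brighter in dnClk, against 80.4 to 122.2 and 61.8 to 125.9 units in WT. Odc1 and CG30371 were dimmer in dnClk. In WT, Odc1 ranged from 967.8 to 2038.3 and from 619.6 to 2556.8, and CG30371 from 661.5 to 2215.5 and from 933.2 to 2381.1. How much of these level differences goes with the technical difference between dnClk and WT arrays was not tested. VAChT, the vesicular acetylcholine transporter, was between 41.8 and 69.5 units and then between 58.1 and 102.1 in dnClk, and between 70.8 and 87.2 and then between 24.7 and 59.7 in WT, where the days did not overlap.

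The size of the day difference in the passing genes varied with hour. The median difference of the 32 genes that rose was 0.84 at hour 0, 1.02 at hour 4, 1.24 at hour 8, 0.97 at hour 12, 1.37 at hour 16 and 1.28 at hour 20, and 12 of the 32 had their smallest difference at hour 0. The median over all tested genes stayed between -0.06 and 0.12 at the 6 hours.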
